A study of Homo sapiens with 4 samples.

Results

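The genes described here are CCND1, CCND2, CCND3, CDK4, CDK6, CDK2, CDKN1B, CDKN2A, RB1 and MYC, which encode the core of the G1 restriction point. They are 10 of the 29437 genes listed for each library and were taken by gene name, and each was found once. The set was chosen by a rule that used measured values of this comparison, the fold changes between the groups, in particular that CCND1 was lower with CCL20 overexpression also after a correction for transcript length. The differences of these 10 genes between the groups are therefore given as a description, with standard errors and without p-values. Where the text counts how many of them passed the threshold of a fit over all genes, the share of all genes past it stands beside the count, and nothing is read from either.

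Cells commit to DNA replication when D-type cyclins, bound to CDK4 or CDK6, and then cyclin E with CDK2 phosphorylate the retinoblastoma protein and release E2F transcription factors. The INK4 protein p16 blocks CDK4 and CDK6, the CIP/KIP protein p27 binds cyclin-CDK complexes, and MYC drives growth and several genes of the same machinery. In squamous carcinoma this pathway is commonly disturbed by gain of the CCND1 region on chromosome arm 11q and by loss of p16.

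RNA sequencing compared 2 libraries of CAL27 cells labelled CCL20-overexpression with 2 libraries labelled negative control. CAL27 is a long-used line from a human squamous carcinoma of the tongue, and the chemokine CCL20 draws cells that carry its receptor CCR6. All cells were harvested after 48 hours, and 1.5 µg of RNA went into each library of polyadenylated RNA. The labels name a lentivirus as the means by which CCL20 was overexpressed. The promoter of the vector, whether the line is 1 clone or a pool, and which virus the negative control received are not stated in the sources used here. Whether the replicates were separate cultures is not stated, so SEs and p-values measure the spread between these libraries, which may be technical.

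Total gene counts were 15355030 and 16870325 in the CCL20-overexpression libraries and 13681862 and 17860695 in the negative controls, and precision is limited by 2 libraries a group rather than by depth. All 12 squamous epithelial markers were measured, with a summed level of 1132 and 1355 FPKM with overexpression against 1078 and 1137 FPKM in the control, of which KRT5 gave 362 and 521 against 439 and 467. KRT14, another basal keratin, was low in every library, between 0.712 and 1.11 FPKM. Summed markers of fibroblasts, leukocytes and endothelium lay between 2.13 and 9.12 FPKM in every library, and most of the endothelial sum was CDH5, at 5.19 and 5.03 against 8.66 and 8.11 FPKM. CCL20 itself stood at 15.2 and 11.3 FPKM with overexpression and at 8.62 and 7.10 FPKM in the control (log2 fold change 0.95, SE 0.21, edgeR adjusted p = 0.0143). After a correction for mRNA length, described below, its log2 fold change was 0.06 (SE 0.24, edgeR adjusted p = 0.916).

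FPKM is the count scaled by exonic length and by the library's total count. Levels are set side by side between genes on this scale only. Exonic length exceeds mRNA length unevenly, with 4329 against 1015.5 nt for CDKN2A and 4830 against 4307 nt for CCND1. An order of levels between genes therefore depends on the length used. Log2 fold changes are CCL20-overexpression over negative control, estimated with edgeR on counts scaled by TMM, and they differ from ratios of FPKM means, since the scaling is not the same. TMM factors were 0.964 and 0.896 with overexpression and 1.08 and 1.07 in the control. FPKM leaves these factors out and places the overexpression libraries lower than TMM does. On log2(FPKM + 1) the median difference of all tested genes was -0.17, beside 0.0019 in edgeR. A gene was called where its Benjamini-Hochberg adjusted p over all 12168 tested genes was under 0.05. Calls were common between these libraries, with 16.5% of tested genes higher and 15.7% lower with overexpression.

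CCND1, the D-type cyclin that couples growth signals to CDK4 and CDK6, had the highest FPKM of the D-type cyclins in all 4 libraries. CCND1 (ENSG00000110092; GRCh38 chromosome 11, 69641087 to 69654474, plus strand) had 28.2 and 23.05 FPKM in the CCL20-overexpression libraries, against 55.5 and 56.9 FPKM in the negative controls. Both overexpression libraries lay below both controls, by more than the gap within either group. The counts behind these levels were 2095 and 1878 with overexpression and 3666 and 4909 in the control. The means were 25.6 ± 3.68 FPKM with overexpression and 56.2 ± 1.01 FPKM in the control (SD, n = 2 each), and the log2 fold change was -0.93 with an SE of 0.16. In cultures measured as bulk RNA, fewer cells expressing a gene and less RNA per cell cannot be told apart. CCND1 shares 497 nt of its exons, 10.3% of their length, with LTO1 on the opposite strand. LTO1 itself was at 4.97 and 4.096 FPKM with overexpression and 4.596 and 4.73 FPKM in the control, with the groups overlapping.

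CCND3, the D-type cyclin best known from blood cells and also present in epithelia, showed overlapping groups. CCND3 (ENSG00000112576; chromosome 6, 41934933 to 42050357, minus strand) had 13.96 and 16.1 FPKM with overexpression against 14.2 and 13.9 FPKM in the control. Its log2 fold change was 0.31 with an SE of 0.18, and -0.19 on a TPM scale, on which the median of all tested genes was -0.49. CCND2 (ENSG00000118971; chromosome 12, 4273772 to 4305350, plus strand), the third D-type cyclin, was close to absent. CCND2 had 53 and 93 counts with overexpression and 59 and 67 in the control, which is 0.482 and 0.7702 against 0.603 and 0.524 FPKM. It was the only one of the 10 genes below the mean of 1 FPKM required for the fit, so it has no fold change there, and with no filter its log2 fold change was 0.42.

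**Figure D1:**
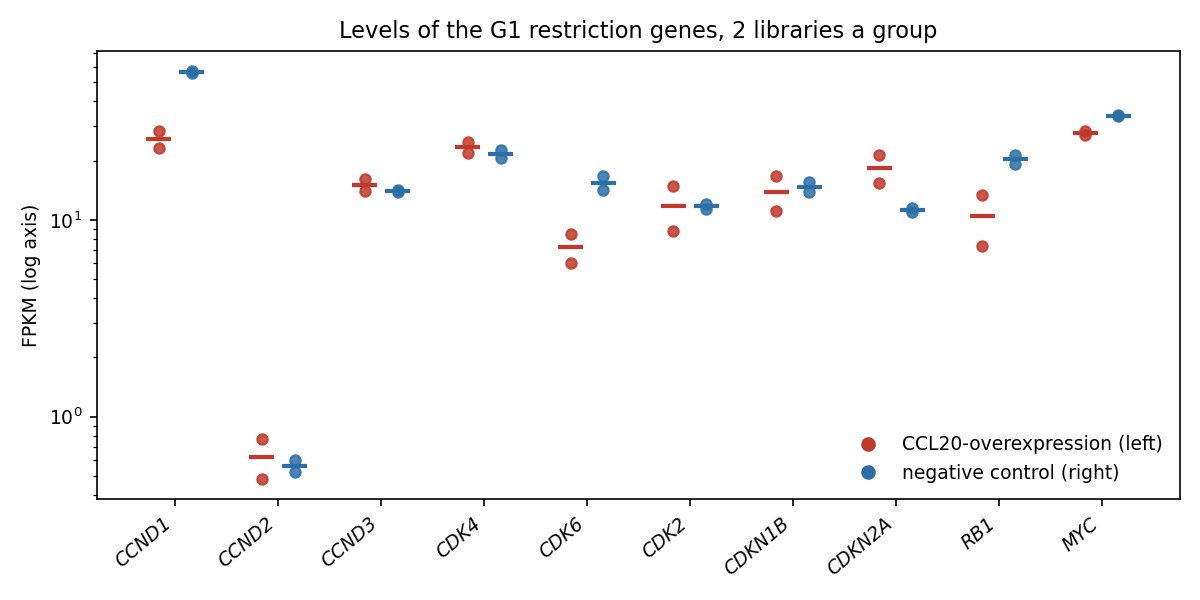
FPKM on a log axis for the 10 genes, with CCL20-overexpression libraries in red at the left and negative control libraries in blue at the right of each pair; points are libraries and bars are means of 2. The groups stand apart for CCND1, CDK6, CDKN2A, RB1 and MYC and overlap for the other 5 genes.

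In FPKM, the pool of D-type cyclin transcripts was smaller with overexpression and held a lower share of CCND1. Summed over CCND1, CCND2 and CCND3, the level was 42.7 and 39.96 FPKM with overexpression and 70.3 and 71.3 FPKM in the control. CCND1 made up 66.2% and 57.7% of that sum with overexpression, against 78.9% and 79.8% in the control. CCND3 made up 32.7% and 40.4% with overexpression, against 20.2% and 19.4% in the control. CCND2 contributed 1.13% and 1.93% with overexpression and 0.857% and 0.735% in the control. The CCND1 level was 2.02 and 1.43 times that of CCND3 with overexpression, and 3.901 and 4.11 times in the control. These shares are ratios within a library, so they do not depend on how libraries are scaled. They do depend on the length used for each gene. Exonic length is 4830 nt for CCND1 and 5802 nt for CCND3, while their mRNAs have 4307 and 2085 nt. Which of them is higher with overexpression therefore rests on the length used. Divided by mRNA length instead, the overexpression counts of CCND3, 1244 and 1580, stood above those of CCND1, 2095 and 1878. In the control CCND1 stayed above CCND3 by either length. The fold changes of both genes also carry their transcript lengths, which are taken up below.

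**Figure D2:**
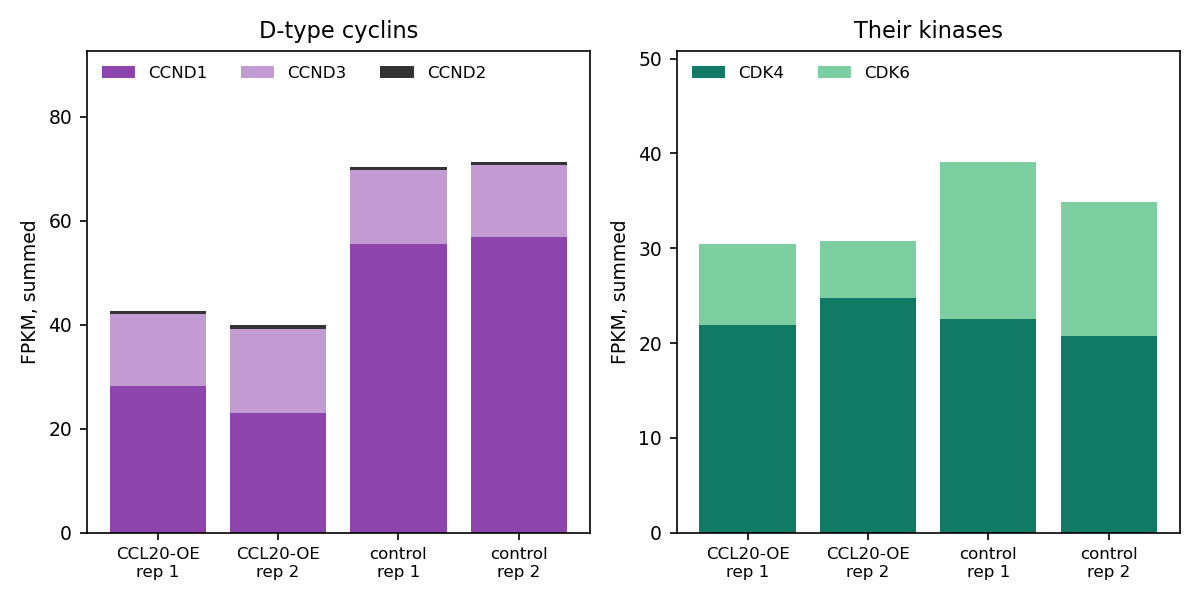
Summed FPKM in each library for the D-type cyclins (left panel) and for CDK4 and CDK6 (right panel), with CCL20-overexpression (CCL20-OE) libraries left of the negative controls. The D-type cyclin sum is 42.7 and 39.96 FPKM with overexpression against 70.3 and 71.3 FPKM in the control, and the CDK6 part of the kinase sum is smaller in both overexpression libraries.

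The kinase partners of the D-type cyclins differed from each other. CDK4 (ENSG00000135446; chromosome 12, 57747727 to 57756013, minus strand) had 21.9 and 24.8 FPKM with overexpression against 22.5 and 20.7 FPKM in the control, and the groups overlapped. Its log2 fold change was 0.32 with an SE of 0.17, and -0.18 on the TPM scale. CDK6 (ENSG00000105810; chromosome 7, 92604921 to 92836594, minus strand) had 8.52 and 6.01 FPKM with overexpression against 16.6 and 14.2 FPKM in the control. Both overexpression libraries of CDK6 were below both controls, and its log2 fold change was -0.89 with an SE of 0.19. The sum of the 2 kinases was 30.4 and 30.9 FPKM with overexpression and 39.1 and 34.9 FPKM in the control, and the CDK6 share of it was 28.0% and 19.5% against 42.5% and 40.8%. The sums hold for FPKM, which leaves out the TMM factors, and nothing is read from their difference between the groups. CDK4 shares 43.2% of its exon length with TSPAN31 on the opposite strand, and since the strand setting of the counting is not given, reads from the overlap cannot be assigned with certainty.

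The promoters of the 2 kinase genes are shown because one gene overlapped between the groups and the other did not. Groups did not overlap for 72.7% of all tested genes, and CDK6 stood at -0.32 (SE 0.16) with the mRNA length correction described below. Whether promoter letters bear on these differences was not tested. In RefSeq (GRCh38.p14), 6 of the 10 genes had promoter windows, 10 windows in all. CCND1, CCND2, CDK2 and MYC had none. The 250 bases before each start were searched on both strands. CDK4 had 1 window and CDK6 had 2. The CDK4 window held 3 copies of the E-box CACGTG, the motif bound by MYC with its partner MAX; CACGTG reads the same on both strands. They are printed with 12 flanking bases on each side, 5′ to 3′ on the minus strand, with the E-box in capitals. Their last E-box bases lie 210, 190 and 95 bases before the RefSeq start, and the first 2 stretches overlap by some bases.
CDK4 E-box 1, chr12:57752509-57752538: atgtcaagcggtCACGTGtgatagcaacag
CDK4 E-box 2, chr12:57752489-57752518: atagcaacagatCACGTGgctgccatcgcc
CDK4 E-box 3, chr12:57752394-57752423: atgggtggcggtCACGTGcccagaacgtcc
Of 35116 windows in the table, 6.34% held CACGTG and 28 held 3 or more. Both CDK6 windows held no CACGTG. The GC box GGGCGG, bound by SP1-type factors and counted on either strand as GGGCGG or CCGCCC, was present at both genes, with 3 copies in the CDK4 window, 3 in the upstream CDK6 window and 0 in the other. The upstream CDK6 window is shown over the stretch with its 3 GC boxes, in capitals.
CDK6 promoter, chr7:92836595-92836823, minus strand: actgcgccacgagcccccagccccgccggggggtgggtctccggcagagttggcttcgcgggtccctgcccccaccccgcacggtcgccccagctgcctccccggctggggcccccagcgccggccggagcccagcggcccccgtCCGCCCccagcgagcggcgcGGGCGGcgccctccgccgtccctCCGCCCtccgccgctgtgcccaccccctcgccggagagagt
A GC box was present in 42.6% of all windows. The E2F motifs TTTGGCGC, TTTCGCGC and TTTCCCGC were searched as well, and 0 of the 10 windows of the set held one, against 2.32% of all windows. A match is a description of the letters, and its absence says only that these letters are not in the window. The only RB1 window, 48476200 to 48476499, lies inside the gene, so the bases before its annotated start at 48303726 were not searched. The same holds for CDK4, whose window, 57752261 to 57752560, lies with its 3 E-boxes inside the gene, which starts at 57756013 on the minus strand. All windows of CCND3 and CDKN1B also lie inside their genes.

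CDK2, which acts with cyclins E and A after the D-type cyclins, had 14.8 and 8.78 FPKM with overexpression against 11.98 and 11.4 FPKM in the control. CDK2 (ENSG00000123374; chromosome 12, 55966769 to 55972784, plus strand) thus ranged more widely between the overexpression libraries than between the groups, and its log2 fold change was 0.20 with an SE of 0.23, and -0.27 on the TPM scale.

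Of the CDK inhibitors in the set, CDKN2A was higher with overexpression and CDKN1B overlapped between the groups. CDKN2A (ENSG00000147889; chromosome 9, 21967753 to 21995301, minus strand) had 15.3 and 21.3 FPKM with overexpression against 10.9 and 11.5 FPKM in the control. Both overexpression libraries were above both controls, with the larger value in replicate 2, and the log2 fold change was 0.93 with an SE of 0.22. CDKN2A encodes p16INK4a and, from another first exon and reading frame, p14ARF, which stabilises p53. RefSeq places its 2 starts at 21995324 and 21974857 of chromosome 9, 20467 nt apart, and the single row of counts does not separate the products. Its exons share 341 nt with the antisense RNA CDKN2B-AS1, which had a mean of 34.8 counts a library. CDKN1B (ENSG00000111276; chromosome 12, 12715058 to 12722371, plus strand), the gene of p27, had 16.7 and 11.1 FPKM with overexpression against 15.6 and 13.8 FPKM in the control. Its log2 fold change was 0.12 with an SE of 0.21, and -0.36 on the TPM scale.

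Set against its targets in FPKM, CDKN2A stood at 0.501 and 0.691 of the CDK4 and CDK6 sum with overexpression. In the control it stood at 0.277 and 0.329. The size of this ratio depends on the use of exonic length, 4329 nt for CDKN2A against an mRNA of 1015.5 nt. The D-type cyclin sum was 2.56 and 3.603 times the CDKN1B level with overexpression and 4.51 and 5.18 times in the control. For both ratios the groups did not overlap, and neither did they for 72.7% of all tested genes taken singly. The ratios use genes chosen with this comparison known. CDKN2A and CDK6 also differ in mRNA length, which is taken up below. Nothing is read from the separation.

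RB1, the substrate of these kinases and the repressor of E2F, was lower with overexpression. RB1 (ENSG00000139687; chromosome 13, 48303726 to 48599436, plus strand) had 13.4 and 7.39 FPKM with overexpression against 21.3 and 19.2 FPKM in the control. The overexpression libraries differed from each other by almost as much as the nearer one differed from the control, and the log2 fold change was -0.77 with an SE of 0.25. MYC (ENSG00000136997; chromosome 8, 127735434 to 127741434, plus strand) varied little within either group, with 28.2 and 26.9 FPKM with overexpression against 33.7 and 33.99 FPKM in the control. The MYC groups did not overlap on the FPKM scale, while its log2 fold change on the TMM scale was -0.09 with an SE of 0.16.

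Of the 9 genes of the set that were tested, 3 were called lower (CCND1, CDK6 and RB1) and 1 was called higher (CDKN2A), beside 15.7% and 16.5% of all tested genes. Groups did not overlap for 5 of the 10 genes, and for 72.7% of all tested genes. Since the set was chosen with this comparison known, nothing is read from these counts. Without negative control replicate 1 or replicate 2, 0 of the 9 were called in either direction by edgeR, beside 2.73% of all tested genes lower and 2.61% higher without replicate 1, and 4.39% and 3.74% without replicate 2. Without overexpression replicate 1 or 2 the counts were 3 lower and 3 higher, beside 31.5% lower and 30.8% higher without replicate 1, and 26.6% and 26.2% without replicate 2. With 1 library left in a group the spread comes from the other group's pair, and the overexpression pair varied more (chi-square per gene 51.8, against 8.49 in the control pair).

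Ranked by level, MYC (27.5 FPKM), CCND1 (25.6), CDK4 (23.4) and CDKN2A (18.3) came first with overexpression, followed by CCND3 (15.1), CDKN1B (13.9), CDK2 (11.8), RB1 (10.4), CDK6 (7.27) and CCND2 (0.626). The libraries of neighbouring genes in that order overlapped, other than CDK4 over CDKN2A and CDK6 over CCND2. In the control the order was CCND1 (56.2 FPKM), MYC (33.8), CDK4 (21.6), RB1 (20.3), CDK6 (15.4), CDKN1B (14.7), CCND3 (14.04), CDK2 (11.7), CDKN2A (11.2) and CCND2 (0.563). There the neighbours that overlapped were CDK4 with RB1, CDK6 with CDKN1B, CDKN1B with CCND3, and CDK2 with CDKN2A. CCND1 thus overlapped with its neighbours MYC and CDK4 with overexpression and led in the control. CDKN2A was in the fourth place with overexpression and in the ninth in the control. These places hold for FPKM, which divides by exonic length, and levels per mRNA length were not ranked.

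The differences between the groups followed transcript length across the transcriptome, and the set spans that trend. Over 10571 tested coding genes, mRNA length and log2 fold change had a Spearman correlation of -0.73 (genes are not replicates), with short mRNAs higher with overexpression and long mRNAs lower. At the mRNA length of CCND1, 4307 nt, the fitted trend was -0.31, against its own -0.93. The trend was -0.39 at RB1 (4793 nt), -0.57 at CDK6 (6538.5 nt, the median of its principal transcripts) and 0.82 at CDKN2A (1015.5 nt). CDK4, CCND3, CDK2 and CDKN1B, with mRNAs of 2076 to 2657 nt, lay where the trend was between 0.05 and 0.28, close to their own values. MYC was below the trend, at -0.09 against 0.65 for the 1365 nt of its only principal transcript. Its longest coding transcript has 2366 nt. Length therefore moved with the group for most of the set, and its part in the RNA, the libraries or the cells was not tested.

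**Figure D3:**
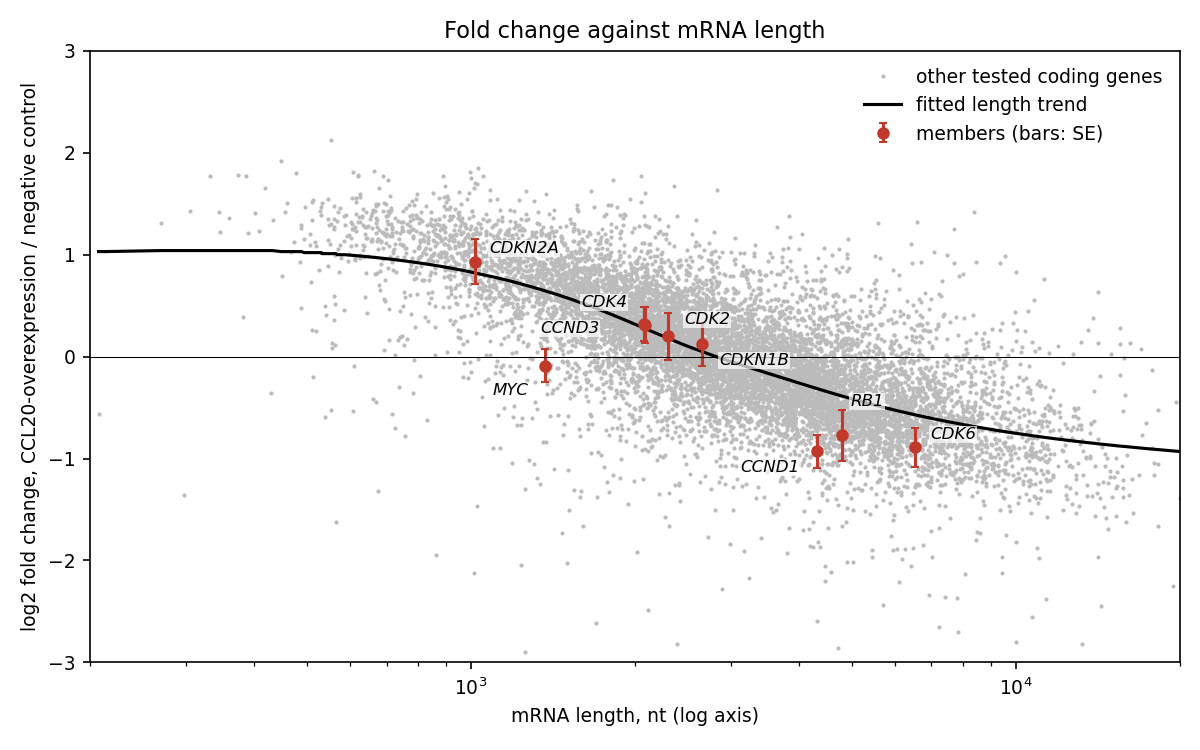
Log2 fold change, CCL20-overexpression over negative control, against mRNA length on a log axis for tested coding genes (grey; the few beyond the axes are not drawn), with the fitted trend as a line and 9 genes of the set in red with SE bars. CDKN2A, CDK4, CCND3, CDK2 and CDKN1B lie near the trend, RB1 and CDK6 below it by less than CCND1, and MYC and CCND1 furthest below it.

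With the mRNA length trend removed as an offset, the log2 fold changes of CCND1, CDK6, RB1 and CDKN2A were closer to 0 and that of MYC was further from it. That of CCND1 after this correction is among the values by which the set was chosen and is given as a description. The log2 fold change of CCND1 was -0.61 (SE 0.15) with the mRNA length correction, -0.68 (SE 0.14) with the longest coding transcript in place of the principal ones, -0.70 (SE 0.10) with length, gene span and GC content together, and -0.90 (SE 0.16) with exonic length. CDK6 stood at -0.32 (SE 0.16) with the mRNA length correction and at -0.16 (SE 0.15) with the longest transcript. RB1 stood at -0.39 (SE 0.22) and -0.45 (SE 0.22) in these fits, and CDKN2A at 0.09 (SE 0.18) and 0.13 (SE 0.18). CCND3, CDK4, CDK2 and CDKN1B stood between 0.04 and 0.08 with the mRNA length correction. MYC depended on the transcript taken as its length, with -0.73 (SE 0.15) for the principal transcript, -0.35 (SE 0.15) for the longest and -0.44 (SE 0.15) for exonic length. In counts, 2 of the 9 passed the threshold as lower with the mRNA length correction (CCND1 and MYC), beside 3.19% of coding genes, and 0 as higher, beside 3.63%. With the longest transcript 1 passed as lower (CCND1), beside 2.87%, and 0 as higher, beside 4.3%. With length, span and GC content together 2 passed as lower (CCND1 and MYC), beside 11.1%, and 0 as higher, beside 13.9%. With exonic length 1 passed as lower (CCND1), beside 5.93% of all tested genes, and 1 as higher (CDKN2A), beside 9.95%. Leaving out a library in the mRNA length fit changed the share of all coding genes called by a wide margin. Without negative control replicate 1 or replicate 2, 0 of the 9 passed in either direction, beside 0.899% lower and 0.359% higher without replicate 1, and 1.22% and 0.473% without replicate 2. Without overexpression replicate 1 there were 5 lower and 0 higher, beside 20.8% and 24%. Without overexpression replicate 2 there were 2 lower and 2 higher, beside 17% and 19.1%.

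**Figure D4:**
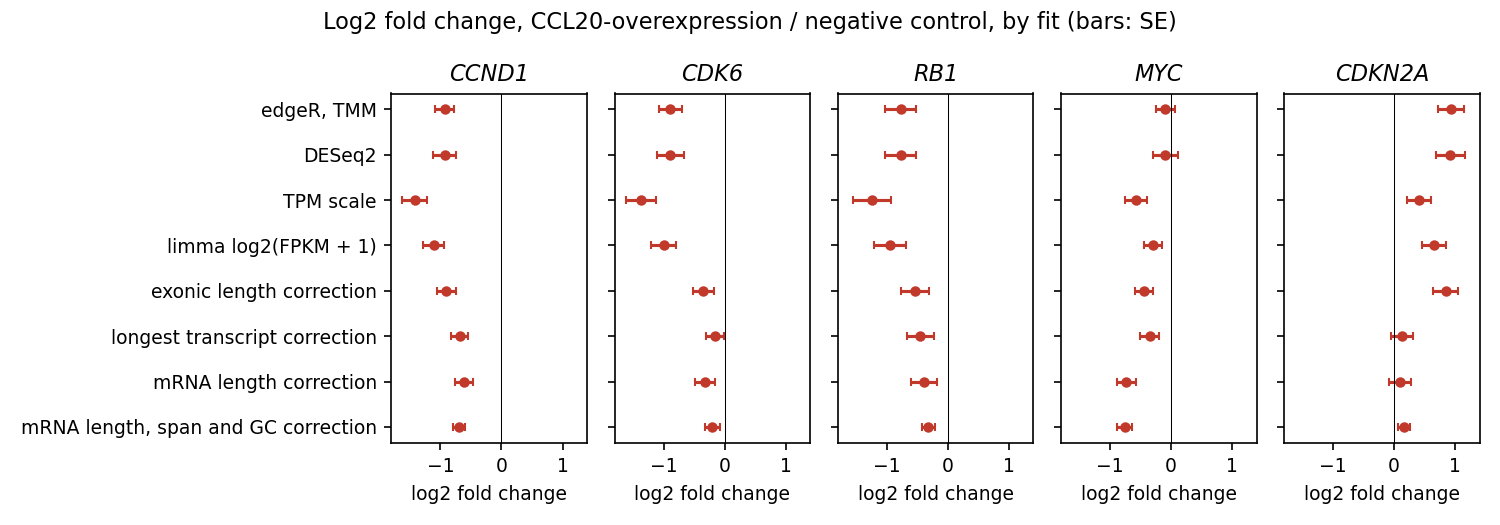
Log2 fold change with SE bars (CCL20-overexpression over negative control) of CCND1, CDK6, RB1, MYC and CDKN2A under 8 fits, from edgeR with TMM at the top to the joint correction for length, span and GC content at the bottom. CCND1 lies between -1.42 and -0.61 in these fits, while CDK6 and RB1 move towards 0 with the length corrections and CDKN2A does so with all of them but the exonic one.

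All 22 fits reuse the same libraries and CCND1 was chosen for being lower, so their signs are given as a description. Over these fits, those leaving out a library included, the log2 fold change of CCND1 lay between -1.42 and -0.57. CDK6, RB1 and MYC were below 0 in every one of these fits as well, from -1.37 to -0.16, from -1.24 to -0.10 and from -0.80 to -0.04. CDKN2A was above 0 in 21 of 22, between -0.11 and 1.18. CCND3, CDK4, CDK2 and CDKN1B changed sign between fits.

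The other genes of the pathway were taken from 10 lists. Of 152 listed genes 151 were measured and 142 tested, of which 26 were higher and 23 lower with overexpression and 93 were not called, with a median log2 fold change of -0.06. These are 18.3% and 16.2% of the tested pathway genes, near the 16.5% and 15.7% of all tested genes, whose median was 0.0019. The counts by list below are small and stand beside these shares of all tested genes. DESeq2 called 17.1% of all tested genes higher and 16.9% lower. Shares of all genes at an unadjusted p were not computed, so nothing is read from the list counts at that threshold. With the mRNA length correction 4 were higher and 6 lower (2.82% and 4.23%, beside 3.63% and 3.19% of all coding genes), with a median of -0.0018 beside 0.03. How many of the 36 calls named below were also made after a correction depended on which one was used. There were 7 with the mRNA length correction (CCNE2, GINS2, MCM2, NCOA3, SP1, TEAD1 and BTG1), 8 with the longest transcript, 19 with exonic length and 19 with mRNA length, gene span and GC content together. The 7 were among both sets of 19. CCNE2, among the 7, reached the mean of 1 FPKM required for the fit only through the control. In the joint fit 23 pathway genes were higher and 18 lower, 16.2% and 12.7% beside 13.9% and 11.1% of coding genes, and in the exonic fit 16 and 13, 11.3% and 9.15% beside 9.95% and 5.93% of all tested genes. Without negative control replicate 1, 5 of the 36 stayed past the threshold (RBL2, HUWE1, MCM2, NCOA3 and SP1), and without negative control replicate 2, 11 did. Without negative control replicate 1, 5 of all pathway genes were lower and 0 higher, and without replicate 2, 8 and 3. Without overexpression replicate 1 there were 58 lower and 45 higher, and without replicate 2 there were 36 lower and 41 higher. With the mRNA length correction and without negative control replicate 1, 0 of the 7 stayed past the threshold, and without negative control replicate 2, SP1 and TEAD1 did.

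**Figure D5:**
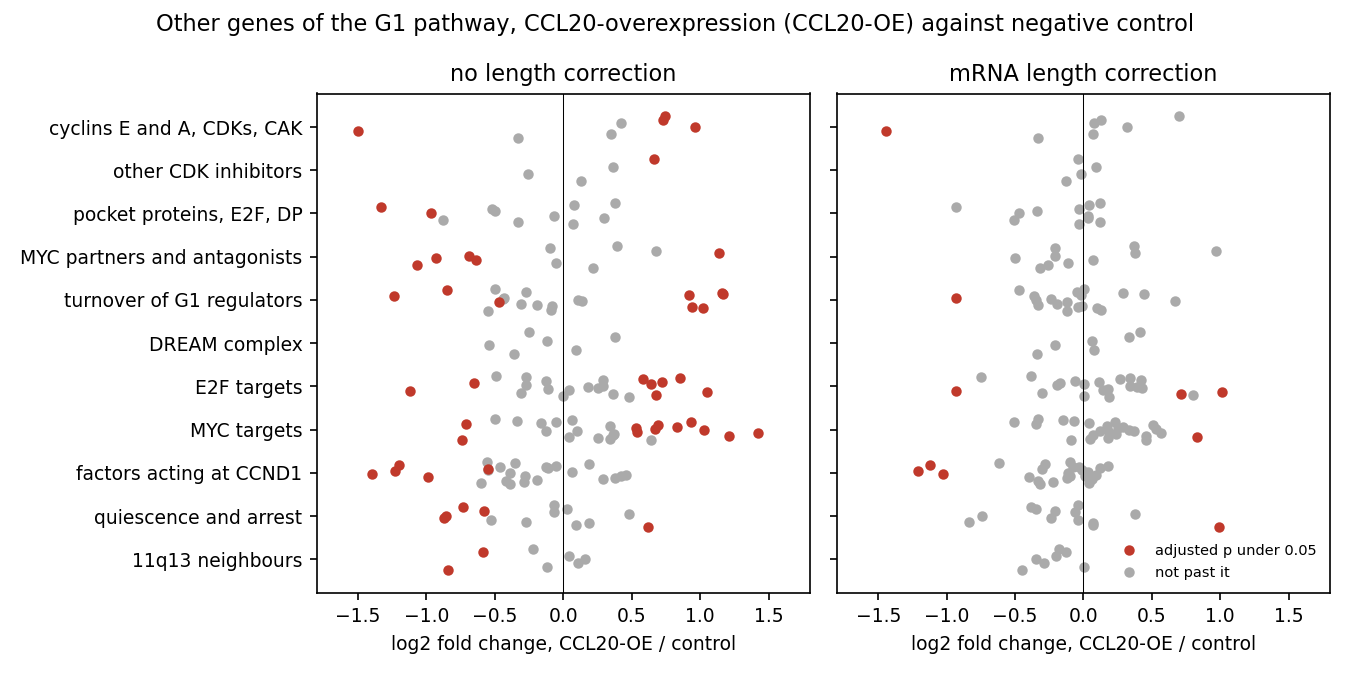
Log2 fold change, CCL20-overexpression (CCL20-OE) over negative control, of each tested pathway gene by list, without correction (left) and with the mRNA length correction (right); red points have an edgeR adjusted p under 0.05. Of the red points at the left most are grey at the right, where 4 pathway genes remain higher or become so and 6 lower.

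Among cyclins and CDKs beside the set, 3 of 7 tested genes rose and 1 fell, with a median of 0.42. These are 42.9% and 14.3%, beside 16.5% and 15.7% of all tested genes. CCNE2, an E-type cyclin that activates CDK2, had 0.652 and 0.431 FPKM with overexpression against 1.88 and 1.64 FPKM in the control. Both overexpression libraries of CCNE2 lay below the control, and it fell by 1.50 on the log2 scale (SE 0.30, edgeR adjusted p = 0.00927). After correction for mRNA length it fell by 1.44 (SE 0.29, edgeR adjusted p = 0.0283). Its counts were 44 and 32 with overexpression and 113 and 129 in the control. CCNE2 averaged 0.542 FPKM with overexpression and 1.76 FPKM in the control. It thus reached the mean of 1 FPKM required for the fit only through the control, and its p-values are given as a description. The 3 that rose form the CDK-activating kinase: CCNH by 0.96 (edgeR adjusted p = 0.00665), MNAT1 by 0.74 (edgeR adjusted p = 0.0205) and CDK7 by 0.73 (edgeR adjusted p = 0.0137) on the log2 scale. Corrected for mRNA length, these stood at 0.32, 0.70 and 0.13 and were not called (edgeR adjusted p = 0.277, 0.0636 and 0.672). The joint correction called CCNH, at 0.50, and MNAT1, at 0.85 (edgeR adjusted p = 0.0190 and 0.00222). Of the 4 tested CDK inhibitors outside the set, CDKN2D, the gene of p19INK4d, rose by 0.66 (edgeR adjusted p = 0.0396), while it had the opposite sign, -0.04, with the mRNA length correction (edgeR adjusted p = 0.938). DESeq2 called 0 of these 4 genes.

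Of 11 tested pocket protein, E2F and DP genes 2 fell and 0 rose in edgeR, with a median of -0.33. DESeq2 called 4 lower and 0 higher, beside 16.9% and 17.1% of all tested genes. At an unadjusted edgeR p under 0.05 there were 5 lower and 1 higher, without a share of all genes to set beside them. RBL2, the gene of the RB relative p130, had 4.25 and 2 FPKM with overexpression against 9.32 and 8.54 FPKM in the control (log2 fold change -1.33, SE 0.29, edgeR adjusted p = 0.0137). E2F7, an atypical E2F that represses transcription, had 10.5 and 7.51 against 21.6 and 18.9 FPKM (log2 fold change -0.97, SE 0.19, edgeR adjusted p = 0.00884). Corrected for mRNA length, they stood at -0.93 and -0.47 and were not called (edgeR adjusted p = 0.0780 and 0.124), while the joint correction called both, at -0.97 and -0.54 (edgeR adjusted p = 0.00651 and 0.00558). In the DREAM complex, which holds p130 in resting cells and MYBL2 in cycling ones, 0 of 6 tested genes were called without a correction by edgeR or DESeq2, and 1 was lower at an unadjusted edgeR p under 0.05. The joint correction called 2 of them higher, MYBL2 at 0.38 and RBBP4 at 0.30 (edgeR adjusted p = 0.0239 and 0.0411), RBBP4 being named after its values were seen; without a correction RBBP4 stood at -0.25. MYBL2, the highest of them, had 54.3 and 71.8 FPKM with overexpression against 52.1 and 60.5 FPKM in the control.

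The E2F targets moved in both directions. Of 22 tested replication genes 6 rose and 2 fell, with a median of 0.21, and with the mRNA length correction 2 were higher and 1 lower, with a median of 0.16. GINS2, a subunit of the replicative helicase complex, had 31.4 and 33.1 FPKM with overexpression against 16.7 and 19.3 FPKM in the control. It rose by 1.05 on the log2 scale (SE 0.17, edgeR adjusted p = 0.00574), and by 1.01 after correction for mRNA length (SE 0.16, edgeR adjusted p = 0.0141). MCM2, a subunit of the same helicase complex, had 12.6 and 10.05 FPKM with overexpression against 27.6 and 29.1 FPKM in the control. It fell by 1.12 (SE 0.17, edgeR adjusted p = 0.00487), and by 0.93 after correction (SE 0.16, edgeR adjusted p = 0.0160). TK1, thymidine kinase, rose by 0.85 (edgeR adjusted p = 0.0150) and RFC4, of the clamp loader, by 0.72 (edgeR adjusted p = 0.0138), while POLA1, the catalytic subunit of polymerase alpha, fell by 0.65 (edgeR adjusted p = 0.0309). These 3 were not called with the mRNA length correction, at 0.34, 0.11 and -0.17 (edgeR adjusted p = 0.250, 0.708 and 0.579), and TK1 was called with the joint one, at 0.31 (edgeR adjusted p = 0.0352).

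Of 25 tested nucleolar and metabolic genes known as MYC targets 9 rose and 2 fell, at a median of 0.34 on the log2 scale. These are 36% and 8%, beside 16.5% and 15.7% of all tested genes. The median mRNA of the list had 2298 nt, beside 2996 nt over all tested genes. After the mRNA length correction 1 was higher and 0 lower, with a median of 0.19. HSPE1, a mitochondrial chaperonin, FBL, the nucleolar methyltransferase fibrillarin, and NOP16, a ribosome assembly factor, rose by 1.42, 1.21 and 1.03 on the log2 scale (edgeR adjusted p = 0.00477, 0.00487 and 0.00655). Corrected for mRNA length, they stood at 0.57, 0.46 and 0.33 and were not called (edgeR adjusted p = 0.127, 0.115 and 0.255). The joint correction called HSPE1 at 0.51 and FBL at 0.49 (edgeR adjusted p = 0.0421 and 0.00701), and the exonic correction called all 3. CAD, of pyrimidine synthesis, fell by 0.74 and POLR1B, of RNA polymerase I, by 0.71 (edgeR adjusted p = 0.0339 and 0.0146). After the mRNA length correction they stood at -0.09 and -0.35 (edgeR adjusted p = 0.862 and 0.203), and POLR1B was called with the joint correction, at -0.41 (edgeR adjusted p = 0.0178). At the unadjusted threshold the corrected fit had 6 higher and 2 lower.

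Of 10 tested partners and antagonists of MYC 1 rose and 4 fell, with a median of -0.07, and 0 were called with the mRNA length correction (1 higher at an unadjusted p under 0.05) or the longest transcript correction. MXD3, a MAX partner that opposes MYC, rose by 1.14 (SE 0.26, edgeR adjusted p = 0.0148). MGA, MNT and MXD1, which also pair with MAX, fell by 1.07, 0.93 and 0.69 (edgeR adjusted p = 0.00665, 0.0169 and 0.0325). MNT was called with the joint correction, at -0.61 (edgeR adjusted p = 0.0266), and MXD3 with the exonic one, at 1.23 (edgeR adjusted p = 0.0215).

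Of 19 tested genes that set the amount or activity of G1 regulators 5 rose and 3 fell, with a median of -0.19. RBX1 and SKP1, subunits of the SCF ubiquitin ligases, rose by 1.17 and 1.16 on the log2 scale (edgeR adjusted p = 0.00517 and 0.00440). CKS1B, the cofactor with which SKP2 recognises p27, had 92.2 and 90.0 FPKM with overexpression against 49.7 and 53.6 FPKM in the control and rose by 1.02 (SE 0.16, edgeR adjusted p = 0.00509). HUWE1, a ligase of MYC, had 8.19 and 8.49 against 23.3 and 22.04 FPKM and fell by 1.24 (SE 0.16, edgeR adjusted p = 0.00433). USP28, a deubiquitinase of MYC, fell by 0.85 (edgeR adjusted p = 0.0167), and DDB1, of the CUL4 ligases, by 0.47 (edgeR adjusted p = 0.0487), with the opposite sign, 0.13, under the exonic length correction. After the mRNA length correction these 6 stood at 0.44, 0.29, 0.10, -0.36, -0.47 and -0.12, with edgeR adjusted p from 0.166 to 0.753, and with the longest transcript correction SKP1 was called, at 1.84 (edgeR adjusted p = 0.00448). The joint correction called RBX1 at 0.48 and SKP1 at 0.32 (edgeR adjusted p = 0.0231 and 0.0304), and the exonic one called RBX1, SKP1 and CKS1B. In the mRNA length correction 1 of the 19 was called, lower. This was GSK3B, a kinase that marks cyclin D1 for turnover, named after its values were seen: it had -0.93 at a length of 1636 nt (edgeR adjusted p = 0.0161) and 0.17 with its longest transcript (edgeR adjusted p = 0.536).

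Of 25 tested transcription factors and cofactors known to act at CCND1, 5 fell (20%, beside 15.7% of all tested genes) and 0 rose (beside 16.5%) in edgeR, with a median of -0.35. DESeq2 called 7 lower and 0 higher, beside 16.9% and 17.1% of all tested genes. At an unadjusted edgeR p under 0.05 there were 10 lower and 1 higher, without a share of all genes to set beside them. NCOA3, a coactivator of nuclear receptors and E2F1, had 4.85 and 3.16 FPKM with overexpression against 11.7 and 12.4 FPKM in the control (log2 fold change -1.40, SE 0.21, edgeR adjusted p = 0.00477). SP1, which binds GC boxes, had 5.26 and 4.41 FPKM with overexpression against 13.5 and 12.5 FPKM in the control (log2 fold change -1.23, SE 0.17, edgeR adjusted p = 0.00433). TEAD1, the DNA-binding partner of YAP1, had 10.5 and 6.903 FPKM with overexpression against 24.2 and 21.5 FPKM in the control (log2 fold change -1.20, SE 0.20, edgeR adjusted p = 0.00626). Corrected for mRNA length, NCOA3 stood at -1.03 (edgeR adjusted p = 0.0188), SP1 at -1.21 (edgeR adjusted p = 0.00975) and TEAD1 at -1.12 (edgeR adjusted p = 0.0183). In that fit 3 of the 25 were lower (12%, beside 3.19% of coding genes) and 0 higher (beside 3.63%), with a list median of -0.10. The 3 genes named were these. With the longest transcript NCOA3, SP1 and TEAD1 stood at -0.79 (edgeR adjusted p = 0.0387), -0.63 (edgeR adjusted p = 0.0443) and -0.57 (edgeR adjusted p = 0.0848). The call of TEAD1 thus ended there.

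Of 13 tested genes of quiescence and growth arrest 1 rose and 4 fell, with a median of -0.07. BTG1, an antiproliferative gene, had 21.1 and 15.01 FPKM with overexpression against 13.7 and 13.3 FPKM in the control. It rose by 0.62 (SE 0.19, edgeR adjusted p = 0.0368), and by 0.99 after correction for mRNA length (SE 0.16, edgeR adjusted p = 0.0157). FOXO3 and FOXO4, forkhead factors that induce CDKN1B, and TOB2, an antiproliferative relative of BTG1, fell by 0.87, 0.86 and 0.73 (edgeR adjusted p = 0.00816, 0.0297 and 0.0277). Corrected for mRNA length, they stood at -0.24, -0.74 and -0.38 and were not called (edgeR adjusted p = 0.372, 0.106 and 0.252). FOXO4 was called with the joint correction, at -0.82 (edgeR adjusted p = 0.0321), and FOXO4 and TOB2 with the exonic one.

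The neighbours of CCND1 on 11q13, a region often gained as a block in squamous carcinoma, showed where CCND1 stood against genes beside it. Of 7 tested neighbours 2 fell and 0 rose (2 and 0 also at an unadjusted p under 0.05 and in DESeq2), with a median of -0.12. ANO1, a chloride channel, had 1.11 and 1.004 FPKM with overexpression against 2.08 and 2.29 FPKM in the control (log2 fold change -0.84, SE 0.22, edgeR adjusted p = 0.0225). PPFIA1, a liprin of cell adhesion, had 7.16 and 6.32 against 12.3 and 11.02 FPKM (log2 fold change -0.59, SE 0.16, edgeR adjusted p = 0.0284). After correction for mRNA length they stood at -0.45 and -0.13, and 0 of the 7 were called in that fit or at its unadjusted threshold. CTTN, the actin regulator cortactin, had 62.6 and 69.4 FPKM with overexpression against 79.4 and 86.3 FPKM in the control, with a log2 fold change of -0.12. FADD, an adaptor of death receptors, had 8.49 and 10.5 FPKM with overexpression against 10.4 and 10.01 FPKM in the control, with a log2 fold change of 0.11. MYEOV and TPCN2 had log2 fold changes of 0.04 and -0.22.

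The coding genes whose pattern over the 4 libraries was most like that of CCND1 were IGSF3, BAZ1B, TXNDC16, DNAJC11 and KMT2E, by the Euclidean distance between gene-centred log2 CPM (counts scaled to a common library total). Their distances were 0.0193, 0.0225, 0.0241, 0.0295 and 0.0341, and 247 of 10571 coding genes lay within 0.2. IGSF3 had 7.28 and 5.88 FPKM with overexpression against 14.4 and 14.6 FPKM in the control. The mRNAs of these 5 genes have 3311 to 6794 nt, and with 4 libraries in 2 groups a short distance says mainly that a gene has the same difference between the groups.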

How the data were processed

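Each deposited table lists for every gene its count and its FPKM, per the file headers. Per the values, the deposited counts are whole, unscaled reads. The deposited FPKM values equal the count over an exonic length and over the library total; 99.7% of the implied lengths match union exons in GENCODE 29, which gave positions and transcripts. The submitters' processing notes name HISAT2, HTSeq 0.13.5 and GRCh38. The annotation and strand setting were not given in the sources used.

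Counts of genes averaging 1 FPKM or more were fitted by edgeR 4.0.16 under R 4.3.3 (TMM, glmQLFit, then glmQLFTest, two-sided, Benjamini-Hochberg). A gene passed at an adjusted p under 0.05. The SE is the log2 fold change over the root of F. Length corrections fit the deviation of log2 CPM in each library by a natural spline (5 df), which then enters as an offset. mRNA length is the median of the principal transcripts. The longest transcript correction, the correction with gene span and GC content, and the mRNA length correction without each library were added after seeing the data. Alternatives also used DESeq2 1.42.0 and limma 3.58.1. Scripts were tested on simulated data.

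Members and lists were chosen with earlier results of these data known. Named pathway genes are up to 3 per list and direction past the threshold with groups that do not overlap, by size of change, or the highest gene of a list with none; all tested 11q13 neighbours; the 5 genes nearest to CCND1; and the highest marker of each list. Groups were taken from the labels. Replicates differed by more than sampling noise, so none was counted as a duplicate.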

Additional observations from a re-analysis of the deposited data

How the results depend on the processing

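Counts below are in the order lower and higher with CCL20 overexpression. CCND1 was lower in all 22 fits run. It was chosen for being lower and the fits reuse the same libraries, so this is a description. On the TPM scale 0 members were higher, 55 and 6 pathway genes were called, with all genes lower at 4516 and all genes higher at 500, and CCND1 stood at -1.42. With the mRNA length correction 0 members were higher, 6 and 4 pathway genes and 337 and 384 coding genes were called, and CCND1 stood at -0.61. With the exonic length correction 1 member was lower, 13 and 16 pathway genes and 721 and 1211 of all genes were called, and DDB1 stood at 0.13. With mRNA length, span and GC content 0 members were higher, all genes lower were 1177, CCND1 stood at -0.70 and CDKN2D at -0.12. With the longest transcript 1 member was lower and 0 higher, 4 and 7 pathway genes and 303 and 455 coding genes were called, CCND1 stood at -0.68 and CDKN2D at -0.06. With limma on log2(FPKM + 1) 35 and 15 pathway genes and 1245 of all genes as higher were called and CCND1 stood at -1.11, and with a pseudocount of 0.1 there were 13 pathway genes and 1176 of all genes higher and CCND1 stood at -1.14.

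Without each library in turn, members lower ranged from 0 to 3 and higher from 0 to 3, pathway genes lower from 5 to 58 and higher from 0 to 45, all genes lower from 332 to 3837, all genes higher from 318 to 3742, and CCND1 from -1.03 to -0.83. With the mRNA length correction and without CCL20-overexpression replicate 1, 5 members were lower and 0 higher and 41 pathway genes were lower; CCND1 stood at -0.66, CCL20 at -0.25, CDKN2D at -0.11 and CAD at 0.25. Without CCL20-overexpression replicate 2 in that fit, 2 members were higher, CCND1 stood at -0.57 and CDKN2A at -0.11. Without negative control replicate 1 in that fit, 0 members were lower and 0 higher, 0 and 0 pathway genes and 95 and 38 coding genes were called, CCND1 stood at -0.65 and CDKN2D at -0.09. Without negative control replicate 2 in that fit, 0 members were lower and 0 higher, 2 and 0 pathway genes and 129 and 50 coding genes were called, CCND1 stood at -0.58 and CCL20 at -0.07. A single library left in a group is assumed to vary like the other group's pair. The cause of these changes was not tested.

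The groups share replicate numbers 1 and 2, which the labels do not tie to a shared culture or day. Same-numbered libraries deviated together with a correlation of 0.265 over 12168 genes, and of 0.366 over 10571 coding genes after the mRNA length correction. With 2 pairs the numbers are not taken to pair the samples, and a shared batch was not tested. With the replicate number as a block 38 pathway genes lower and, for all genes lower, 2918 were called, and with the block and the mRNA length correction 0 members were higher, 13 and 14 pathway genes were called, all genes lower were 965 and all genes higher 1102, CCND1 stood at -0.61 and CDKN2D at -0.04. For named genes other than CCND1, 2 rules compared each alternative with the main fit. A called gene outside the set was unchanged if its direction and side of the threshold held. A member or uncalled gene was unchanged if its log2 fold change moved by less than the spread between replicates, whatever its sign or call. In all, 771 cases were counted as unchanged. Among them are 4 CCND1 shares on a TPM scale, which cannot change with the scale of a library and were not put to either rule. The call ended in 328 cases, and the sign of a called gene changed in 11. Another 154 values moved by more than that spread.

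Limits are 2 libraries a group, no stated separate cultures, a group difference that follows transcript length, and transcript lengths taken from annotation rather than from these cells. RNA levels only were measured, and p16 and p14 are counted in 1 row.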
